A study of Mus musculus with 4 samples.

Results

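miR-103 and miR-107 are 2 nearly identical microRNAs (miRNAs) that mice make from 3 hairpins, each inside a gene for a pantothenate kinase (Pank), the enzyme family that starts coenzyme A synthesis. The members were the rows named mmu-mir-103-1, mmu-mir-103-2 and mmu-mir-107 in the lists of mature reads, which is 3 of the 374 annotated miRNA loci listed in any library. All 3 were listed in each of the 4 libraries. Small RNA was sequenced from whole blood of Balb/c mice, an inbred albino strain, at an age of 180 days. The control group, kept under normal conditions with feed and water, had 2 libraries, and the group that drank water containing cadmium, a toxic metal, had 2. Neither the dose nor how long the mice drank it is stated in the labels, nor is whether libraries of a group came from separate animals. The p-values below therefore describe these 4 libraries, and part of the spread may be technical. The study asked which blood miRNAs respond to cadmium.

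A miRNA guides a silencing complex to messenger RNAs that pair with its seed, the bases 2 to 8 from its 5′ end. miR-103 and miR-107 share their seed, lie in introns of genes of coenzyme A metabolism, and are known as regulators of insulin sensitivity, with caveolin-1 among their known targets. Both are also known to target Dicer, the enzyme that cuts miRNA hairpins, and miR-107 is known to respond to p53 and to hypoxia. They belong to a wider seed group with miR-15, miR-16, miR-195, miR-322, miR-497 and miR-503, known for targets in the cell cycle.

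The sequences come first because they set what the counts can tell apart. The RefSeq mature sequences (build GRCm38.p6) are given 5′ to 3′ with the only base at which they differ in capitals, followed by the stretches that the deposited lists give as counted, written as DNA. The 3 hairpins matched RefSeq by symbol.
miR-103-3p: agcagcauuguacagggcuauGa
miR-107-3p: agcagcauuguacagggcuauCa
window counted as miR-103: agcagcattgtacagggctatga
window counted as miR-107: agcagcattgtacagggcta
Counted from the 5′ end, the difference is G22C, with the miR-103 base first, so the leading 21 bases are the same. The window of miR-103 covered all 23 bases of the mature form. The window of miR-107 covered 20 of 23 bases and ended 3 bases before the annotated 3′ end, so it left out the base that tells the miRNAs apart. The sequence listed for miR-107 is therefore the start of the sequence listed for miR-103. Among the 211 distinct sequences of the tested loci this was the only such pair. A read that ends at or before base 21 has no base that assigns it to either miRNA, and how such reads were counted is not stated in the labels or files. The split of reads between miR-103 and miR-107 below therefore carries an unknown share of ambiguous reads.

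The counted windows did not differ between control and cadmium libraries. mir-103-1 was counted at chromosome 11, 35782447 to 35782469, plus strand, and mir-103-2 at chromosome 2, 131288103 to 131288125, plus strand. mir-107 was counted at chromosome 19, 34820703 to 34820722, minus strand (mm10, 1-based). Each window was the same in all 4 libraries, and each began at the annotated 5′ end, so the seed was unshifted. Of 166 tested loci with 1 window in all libraries and 1 RefSeq mature form there, 157 (94.6%) began at the annotated 5′ end, and 11 (6.63%) ended 3 or more bases early, as miR-107 did.

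All 3 hairpins lie on the strand of their host gene and in an intron of it. In the GENCODE principal transcripts each was in intron 5 of 6. Mir103-1 is in Pank3, 689 bases after the upstream exon, Mir103-2 is in Pank2, 455 bases after it, and Mir107 is in Pank1, 327 bases after it. No spanning coding transcript had an exon there (0 of 1, 0 of 2 and 0 of 3 transcripts). Host messenger RNA was not measured in these small RNA libraries.

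The copies of miR-103 could not be told apart. Their mature 3′ arms are identical, and mir-103-2 had 6 and 3 more reads than mir-103-1 in the 2 controls, but 1 and 0 more in the cadmium pair. The opposite arms differ between the hairpins, by G1A between miR-103-1-5p and miR-103-2-5p and by C16U between miR-103-2-5p and miR-107-5p (positions from the 5′ end, first-named base first). No row lay on a 5p arm in any of the 4 libraries, and since the lowest count listed was 5, that is no measured 0. miR-103 is treated below as 1 measurement, taken from mir-103-2.

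The blood was rich in red cell miRNA, and part of it was lower in the cadmium libraries. Annotated loci held 35244119 reads in control 1 and 24622926 in control 2, against 14383852 in cadmium 1 and 15565712 in cadmium 2. Levels are CPM, counts scaled to 1000000 reads, after TMM scaling, which sets libraries to a common level from the bulk of loci. The red cell miRNA miR-486 was at 245108 to 261145 CPM in controls and 161361 to 173095 CPM with cadmium. Of 3 tested red cell loci 2 fell, miR-486 and miR-144, where 6.52% of all tested loci were called lower. The third, miR-22, had a log2 fold change of -0.10 ± 0.08 (SE) that did not pass, and miR-16, also abundant in red cells, is given with the seed group below. miR-486 and miR-144 stayed lower in all 5 scalings tried below, but miR-486 missed the edgeR threshold with the upper quartile (adjusted p = 0.137) and miR-144 with total counts, the upper quartile and totals without dominant loci (0.167, 0.206 and 0.0786). The lymphocyte loci of miR-181a, 2 copies with the same reads, fell too, but missed the edgeR threshold with total counts (adjusted p = 0.0550). The other lymphocyte locus, miR-150, had -0.55 ± 0.18 and did not pass. miR-142 of the blood lineages had -0.07 ± 0.12 and miR-126a of platelets and endothelium -0.15 ± 0.20. Of the brain markers, miR-124 was not listed at any of its 3 loci, and the 3 loci of miR-9 were at 2.16 to 3.47 CPM over the 4 libraries and did not pass (0.13 ± 0.29). The liver miRNA miR-122 had 16 reads in control 1, none listed in control 2, and 102 and 114 reads with cadmium, and muscle miR-133a was at 13.1 to 34.2 CPM in controls and 41.1 to 43.0 CPM with cadmium. Of 3 tested epithelial loci 1 fell, miR-205, at 6.33 to 8.66 CPM in controls and 0.742 to 1.06 CPM with cadmium. The others, miR-200b (0.77 ± 0.41) and miR-200c (0.18 ± 0.38), did not pass. The part of these shifts in the values of miR-103 and miR-107 was not tested, and more of a cell type cannot be told apart from more of the miRNA per cell.

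miR-103 was higher in cadmium blood. Control 1 held 110899 of its reads and control 2 held 95620, while the less deep cadmium libraries held 97326 (cadmium 1) and 102994 (cadmium 2). Scaled, these are 3529 and 4263 CPM in controls and 6016 and 6060 CPM with cadmium. Both cadmium libraries lay above both controls, and the cadmium pair was much closer together than the control pair. The control mean was 3896 ± 519 CPM and the cadmium mean 6038 ± 31.0 CPM (SD over 2 libraries), a 1.55-fold difference, with a log2 fold change of 0.63 ± 0.13 (SE) and an edgeR adjusted p = 0.0133 over 276 tested loci. Of these loci 14.5% were called, 7.97% as higher and 6.52% as lower with cadmium, and 39.5% had both cadmium libraries above both controls, so the lack of overlap is itself common in these libraries. With each sequence counted once, 17.5% of 211 had a log2 fold change at least as large as that of miR-103, and 22.7% at least as large as that of miR-107.

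The call of miR-103 depended on having both cadmium libraries. Without cadmium 1 its log2 fold change was 0.64 ± 0.24 and without cadmium 2 it was 0.63 ± 0.25, neither past the threshold. Without control 1 and control 2 it was 0.50 ± 0.07 and 0.77 ± 0.07, with the call kept. In these fits the lone library of a group is assumed to vary like the other group. The number of loci called fell without a cadmium library and rose without a control, so this change is not particular to miR-103. Its edgeR adjusted p also passed above the threshold when loci under a mean of 10 CPM were dropped (0.0560) and when the labels' replicate number was a block (0.0630).

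miR-107 was also above the control level in both cadmium libraries but did not pass the threshold. Control 1 held 20901 of its reads and control 2 held 14307, against 16782 in cadmium 1 and 14098 in cadmium 2, or 665 and 638 CPM in controls and 1037 and 830 CPM with cadmium. The groups did not overlap, and here the cadmium pair was the wider one. The control mean was 651 ± 19.3 CPM and the cadmium mean 933 ± 147 CPM (SD over 2 libraries), 1.43-fold apart, with a log2 fold change of 0.52 ± 0.16 (SE) and an edgeR adjusted p = 0.0710. At an unadjusted p = 0.0143 in the same edgeR fit it was among the 16.7% of loci higher with cadmium at an unadjusted p under 0.05. With counts this high, counting error was 0.692% to 0.842% of the miR-107 values and 0.300% to 0.323% of the miR-103 values, far below the spread between libraries.

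**Figure D1:**
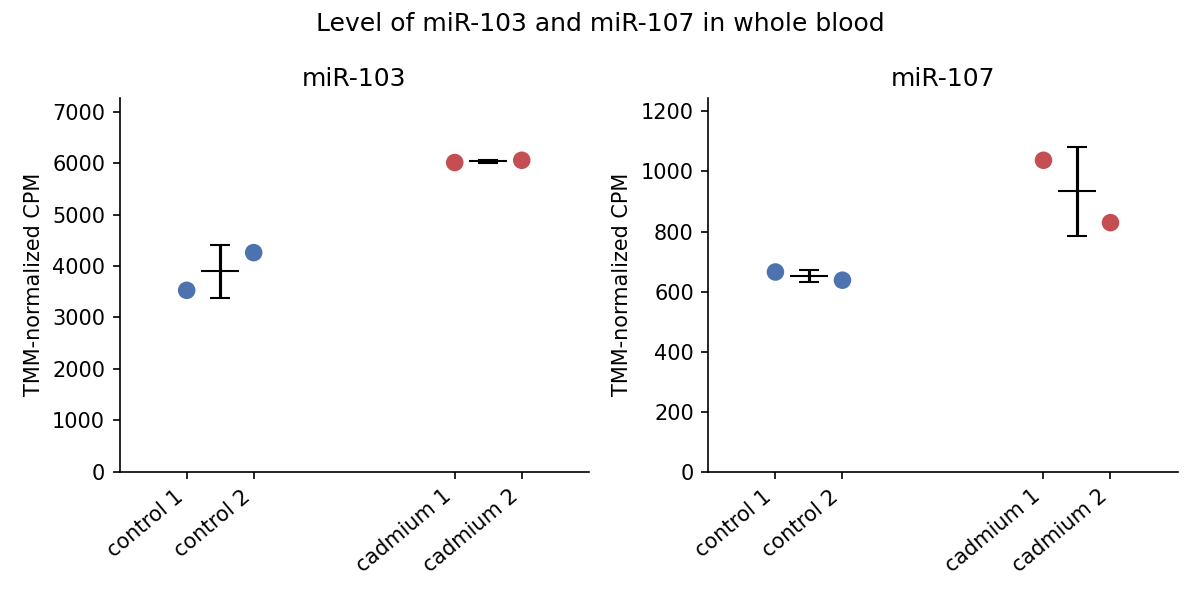
Level of miR-103 (left) and miR-107 (right) in TMM-normalized CPM in each library, with control libraries in blue and cadmium libraries in red, and black bars for the mean ± SD of 2 libraries. Both panels start at 0, and for each miRNA the cadmium libraries (6016 and 6060 CPM, and 1037 and 830 CPM) lie above both controls.

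Scaling moved the size of both differences but not their order between groups. In all 5 scalings tried, both cadmium libraries lay above both controls for miR-103 and for miR-107. With TMM 39.5% of all tested loci had this order, and the share was not counted for the other scalings. Each scaling applies 1 factor per library to the same counts, so the 5 are not independent of each other. The log2 fold change of miR-103 was 0.54 with DESeq2 size factors, 0.76 with totals that leave out dominant loci, 0.86 with the upper quartile and 0.93 with total counts, and it passed the threshold in each (7.61% of loci were called higher with DESeq2 size factors). That of miR-107 was 0.43, 0.64, 0.75 and 0.82 in the same order, and it passed in the last 3 (edgeR adjusted p = 0.0334, 0.00269 and 0.0168). In those 3 the share of loci called higher was 13.8%, 17.4% and 20.7%. They also moved the median log2 fold change of all loci, from 0.08 with TMM to 0.21, 0.32 and 0.38. Relative to that median, miR-103 stood at 0.54 to 0.55 and miR-107 at 0.43 to 0.44 in all 5 scalings. This gap was nearly fixed in advance, since 1 factor per library moves every locus and the median almost alike.

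Set against blood miRNAs in the same library, which needs no scaling, both miRNAs were again higher with cadmium. Per 1000 reads of miR-16, an abundant red cell miRNA counted at mir-16-1, there were 26.8 reads of miR-103 in control 1, 31.8 in control 2, 47.1 in cadmium 1 and 46.3 in cadmium 2. For miR-107 these were 5.06 and 4.75 in controls and 8.11 and 6.34 with cadmium. Per 1000 reads of miR-142 there were 592 and 774 reads of miR-103 in controls and 1018 and 1198 with cadmium. For both miRNAs the groups did not overlap against any of the 8 blood miRNAs tried. All 8 had a negative log2 fold change with TMM, from -0.04 for miR-16 to -0.81 for miR-181a, which widens such ratios. The share of all loci without overlap was not counted for these ratios, and was 39.5% in TMM-scaled CPM. These references were chosen with the values known, and no test was made of them.

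**Figure D2:**
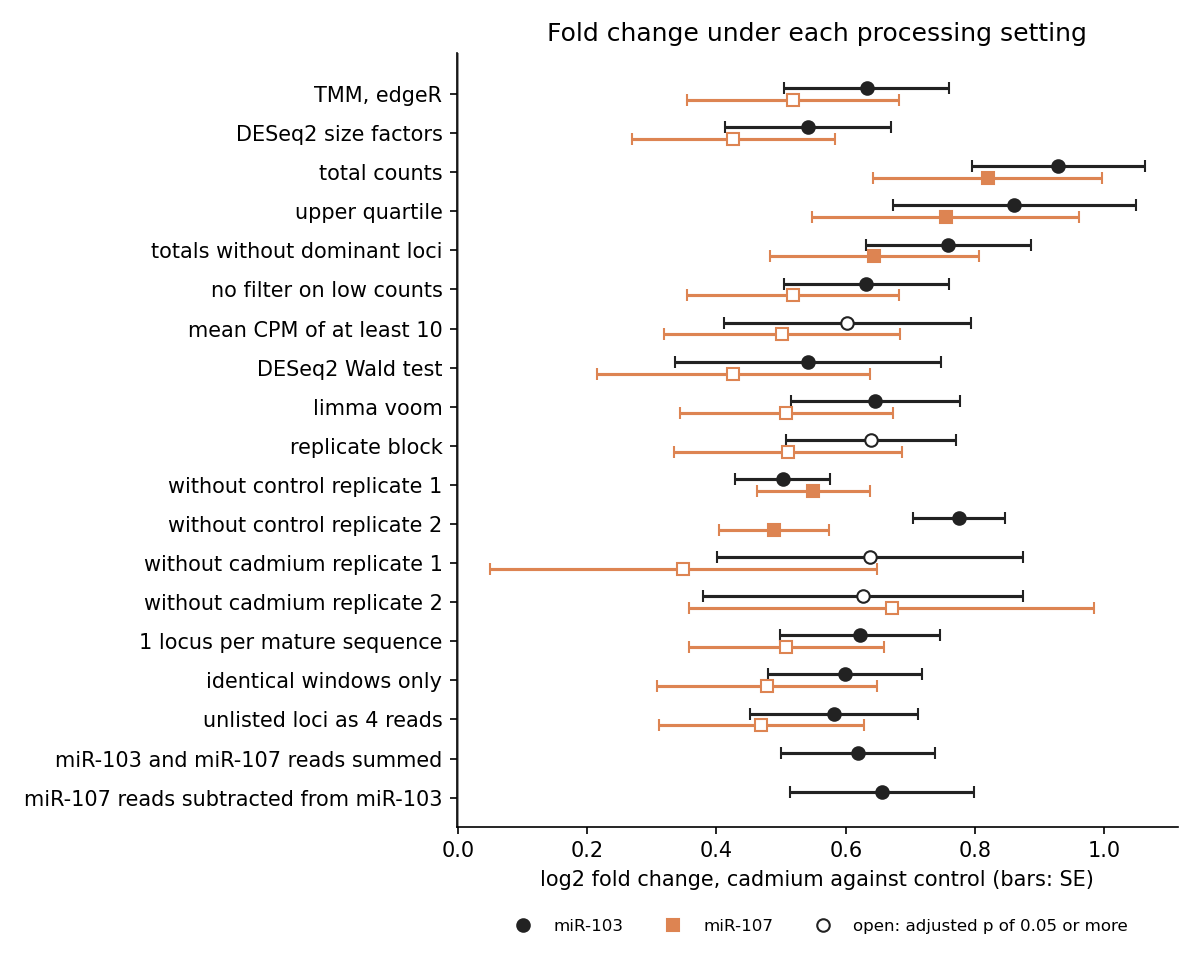
Log2 fold change of cadmium against control for miR-103 (black circles) and miR-107 (orange squares) under TMM and each alternative, with SE bars. Filled symbols have an adjusted p under 0.05, and all values lie above 0, from 0.35 for miR-107 without cadmium 1 to 0.93 for miR-103 with total counts.

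The balance between miR-103 and miR-107 did not separate the groups. There were 5.31 and 6.68 reads of miR-103 per read of miR-107 in the 2 controls, against 5.80 and 7.31 in the cadmium pair. The lowest and highest ratios were a control and a cadmium library, and the other libraries interleaved. In the summed reads miR-103 made up 84.1% (95% Wilson interval 83.9% to 84.3%) in control 1, 87.0% (86.8% to 87.2%) in control 2, 85.3% (85.1% to 85.5%) in cadmium 1 and 88.0% (87.8% to 88.1%) in cadmium 2. These intervals cover counting error only, and they do not overlap between any pair of libraries, so libraries of 1 group differed by more than counting error. The log2 ratio averaged 2.57 ± 0.24 over controls and 2.70 ± 0.24 over cadmium libraries (SD of 2), a difference of 0.13, with the 4 cadmium-control pairs between -0.20 and 0.46. An exact two-sided permutation test gave p = 0.667, where 2 against 2 libraries cannot go below 0.333. That p does not show that the ratio is the same in both groups.

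**Figure D3:**
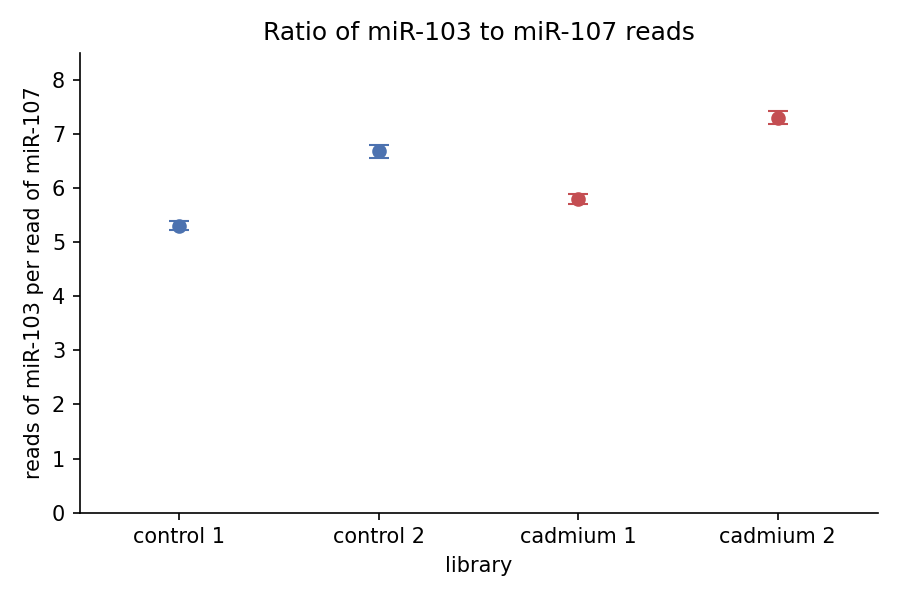
Reads of miR-103 per read of miR-107 in each library, with 95% Wilson intervals for counting error, controls in blue and cadmium in red. The ratios run from 5.31 to 7.31, and the cadmium values of 5.80 and 7.31 interleave with the control values of 5.31 and 6.68.

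Because short reads could belong to either miRNA, the comparison was also made on both summed and on miR-103 less the miR-107 reads. The copies of miR-103 carry nearly the same reads, so a read could be counted at more than 1 locus. A short read counted for both miRNAs would enter the sum more than a single time, so the sum also depends on the counting. The reads of both miRNAs summed to 131800 and 109927 in controls and to 114108 and 117092 with cadmium. Fitted as 1 feature they had a log2 fold change of 0.62 ± 0.12 (SE, edgeR adjusted p = 0.0109). If every read listed for miR-107 were also in the miR-103 count, which is an assumption, 89998 and 81313 reads of miR-103 would be left in controls and 80544 and 88896 with cadmium, and the log2 fold change was 0.66 ± 0.14 (edgeR adjusted p = 0.0200). The size of the miR-103 difference thus stayed between 0.62 and 0.66 under either treatment of the shared stretch.

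As a share of the annotated reads, with identical copies entered a single time, miR-103 and miR-107 together held 0.616% of control 1, 0.725% of control 2, 1.28% of cadmium 1 and 1.22% of cadmium 2. For cadmium 1, the widest, the 95% Wilson interval ran from 1.28% to 1.29%, which is narrow beside the gap between groups. The control mean was 0.670% ± 0.0776 and the cadmium mean 1.25% ± 0.0425 (SD over 2 libraries), 1.87-fold apart. The exact two-sided permutation p = 0.333 is the lowest that 2 against 2 libraries can give. A short read counted for both miRNAs would enter the combined reads more than a single time. A share rises when dominant miRNAs fall, and with the loci above 10% of the reads left out of the total the shares were 1.45% and 1.65% in controls and 2.71% and 2.66% with cadmium.

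miR-103 ranked 17 of 211 distinct sequences by mean CPM, and miR-107 ranked 40. miR-103 ranked 20 and 19 in the 2 controls and 16 and 15 in the cadmium pair, between miR-142 above it and miR-30c below it in mean level. The order of miR-103 and miR-142 was not the same in both groups. miR-142 was above miR-103 in both controls (5963 and 5510 against 3529 and 4263 CPM) and below it in both cadmium libraries (5908 and 5060 against 6016 and 6060 CPM), with no overlap within either group. miR-30c overlapped miR-103 in controls (4014 and 3729 CPM) and lay below it with cadmium (5760 and 5817 CPM). miR-107 ranked 41 and 42 in controls and 38 and 40 with cadmium. Its neighbours were miR-378a, a miRNA in an intron of a metabolic coactivator gene, and miR-423, and both changed places with it between the groups. miR-378a was above miR-107 in both controls (996 and 863 against 665 and 638 CPM), and both its cadmium values were below those of miR-107 (801 and 705 against 1037 and 830 CPM). miR-423 was at 924 and 699 CPM in controls, above miR-107, and at 688 and 640 CPM with cadmium, below it. The log2 fold changes of these neighbours, -0.30 ± 0.16 and -0.29 ± 0.18, did not pass the threshold. These orders are descriptions of 2 libraries a group, with no test.

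The wider seed group shows where miR-103 and miR-107 stand in sequence. The RefSeq mature forms are given 5′ to 3′ with the seed in capitals.
miR-103-3p: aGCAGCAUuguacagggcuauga
miR-107-3p: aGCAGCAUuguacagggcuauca
miR-15a-5p: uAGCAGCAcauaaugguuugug
miR-15b-5p: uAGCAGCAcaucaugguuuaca
miR-16-5p: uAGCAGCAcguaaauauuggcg
miR-195a-5p: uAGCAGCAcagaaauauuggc
miR-322-5p: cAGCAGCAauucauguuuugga
miR-497a-5p: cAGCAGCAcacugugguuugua
miR-503-5p: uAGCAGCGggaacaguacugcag
All 9 hold the stretch AGCAGC, from base 1 in miR-103 and miR-107 and from base 2 in the other 7. The seed of miR-103 and miR-107, GCAGCAU, is therefore shifted by 1 base against AGCAGCA of miR-15, miR-16, miR-195a, miR-322 and miR-497, and miR-503 ends its seed in G.

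The seed group did not move 1 way as a whole. Of 13 loci in the list 11 were tested, which hold 9 distinct sequences, and 4 loci (3 sequences) rose, 1 fell and 6 did not pass, against 7.97% and 6.52% of all tested loci. The 4 are both copies of miR-103, with miR-15b and miR-195a, and the copies carry the same reads. The median log2 fold change was 0.52 over the list and 0.08 over all loci. That list median is the value of miR-107 itself, and miR-103 enters the list with both copies. It is therefore no separate support for either miRNA. With total counts 7 rose and 0 fell (1 at an unadjusted p under 0.05), where 20.7% and 2.90% of all loci did. The 7 are both copies of miR-103 and both of miR-16, with miR-107, miR-15b and miR-195a. Under the upper quartile 5 rose and 1 fell, against 17.4% and 3.26% of all loci, and without dominant loci 5 rose and 1 fell, against 13.8% and 5.07%. In both, the 5 are the copies of miR-103, with miR-107, miR-15b and miR-195a. Without cadmium 1 or without cadmium 2 the edgeR test had 0 of the 11 past the threshold, where 2.89% and 3.25% of all loci were. At an unadjusted p under 0.05 there were 4 higher and 1 lower in each case, against 10.1% higher in both and 6.14% and 5.42% lower over all loci. Without control 2 it had 8 of the 11 past the threshold, where 44.5% of all loci were. DESeq2 called 4 higher and 1 lower, against 8.33% and 10.1% of all loci, and limma voom called 4 higher and 1 lower, against 7.97% and 5.80%.

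Beside miR-103, miR-15b, made from an intron of Smc4, was at 1335 and 1538 CPM in controls and 3006 and 3126 CPM with cadmium (log2 fold change 1.09 ± 0.13, edgeR adjusted p = 0.00207). miR-195a was at 37.1 and 28.0 CPM in controls and 67.6 and 68.5 CPM with cadmium (1.06 ± 0.23, adjusted p = 0.0195). Both rose in all 5 scalings, as miR-103 did. miR-322 fell, from 308 and 542 CPM to 182 and 202 CPM (-1.15 ± 0.27, adjusted p = 0.0268, and 0.0637 with total counts). The far more abundant miR-16, at mir-16-1, stood at 131483 and 134150 CPM in controls and 127860 and 130779 CPM with cadmium. Its log2 fold change of -0.04 ± 0.07 and that of miR-15a, 0.04 ± 0.12, changed sign with scaling (up to 0.26 and 0.34 with total counts, and -0.13 and -0.05 with DESeq2 size factors), and miR-16 passed the threshold with total counts alone. miR-497 had -0.42 ± 0.23, and miR-503, with 13 to 19 reads a library, had 0.66 ± 0.45.

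**Figure D4:**
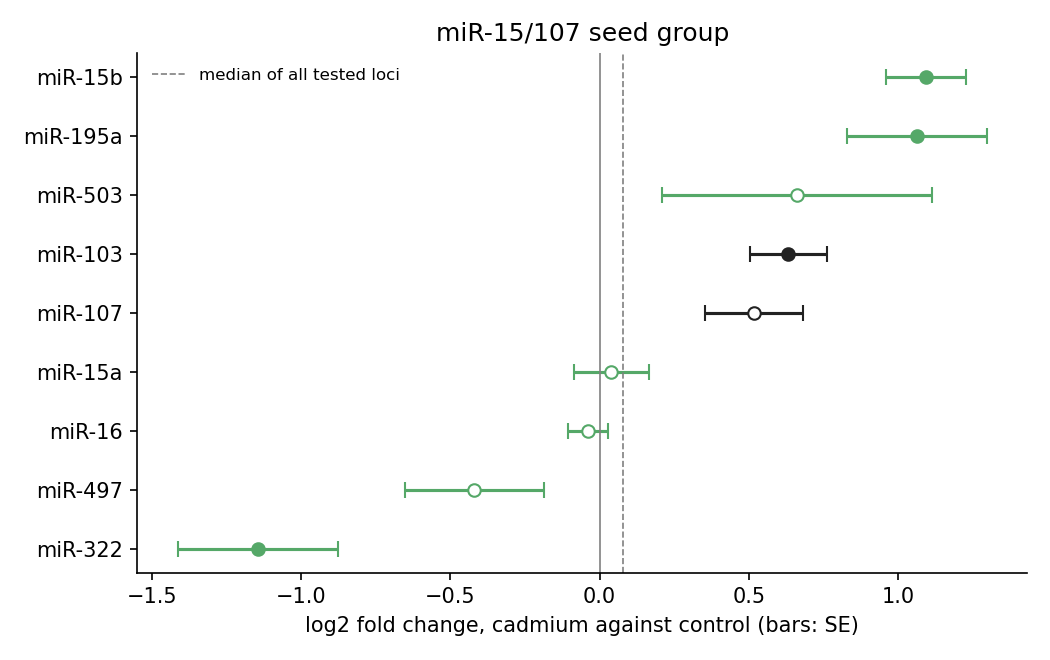
Log2 fold change of cadmium against control with SE bars for the 9 distinct sequences of the seed group, with miR-103 and miR-107 in black, filled where the adjusted p is under 0.05. The dashed line is the median of all tested loci (0.08), and values run from -1.15 for miR-322 to 1.09 for miR-15b.

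Among other miRNAs known from insulin signalling or lipid metabolism, none passed the edgeR threshold with TMM as higher beside miR-103. Of 12 such loci 10 were tested, 0 rose and 1 fell, with a median of 0.17 against 0.08 over all loci. Of all tested loci 7.97% were called higher and 6.52% lower, so 0 and 1 of 10 lie near those shares. At an unadjusted p under 0.05 there were 3 higher and 1 lower, where 16.7% of all loci were higher and 28.6% passed in either direction. limma voom called 0 higher and 1 lower, and DESeq2 called 2 higher, which are the copies of miR-29b, and 1 lower, where the shares over all loci are those given for the seed group. The 1 that fell was miR-27b, known for targets in fat cell differentiation, at 3312 and 2994 CPM in controls and 1966 and 1701 CPM with cadmium (-0.78 ± 0.14, edgeR adjusted p = 0.00938). Among the others, miR-378a is given above, and miR-29b had 0.83 ± 0.28 and miR-320 0.45 ± 0.15, neither past the threshold. With total counts, the upper quartile and totals without dominant loci 3 of the 10 rose in each, where 20.7%, 17.4% and 13.8% of all loci did. These 3 were miR-320 and both copies of miR-29b, which have the same counts.

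Of 11 p53 and hypoxia loci, a list that holds miR-107, 8 were tested and 0 passed the edgeR threshold in either direction (median -0.07, against 0.08 over all loci). Of all tested loci 14.5% passed it, and with 8 loci the count of 0 is a description. At an unadjusted p under 0.05 there were 2 higher, miR-107 and miR-145a, and 0 lower, where 16.7% of all loci were higher and 28.6% passed in either direction. limma voom called 0, and DESeq2 called 1 as higher, miR-145a, against 7.97% and 8.33% of all loci higher. miR-210, the miRNA best known for induction by hypoxia, was at 244 and 237 CPM in controls and 282 and 236 CPM with cadmium (0.11 ± 0.18). miR-192 had -0.24 ± 0.16. With the scalings that raise the median of all loci, 2 (total counts), 3 (upper quartile) and 2 (without dominant loci) of the 8 rose, miR-107 among them, where 20.7%, 17.4% and 13.8% of all loci did.

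Likeness across the 4 libraries was measured as the root mean square difference of log2 CPM, each locus centred on its own mean, over the 110 other sequences with a mean CPM of at least 10. Nearest to miR-103 was miR-20a, of the miR-17-92 cluster, at 0.0862, with a log2 fold change of 0.47 ± 0.15 that did not pass the threshold. miR-320, miR-148b, miR-222 and miR-30c followed at 0.110 to 0.137. Of these 5 sequences miR-30c passed the threshold (0.58 ± 0.11, edgeR adjusted p = 0.0114). Nearest to miR-107 was miR-106b, of the miR-106b-25 cluster, at 0.0540 with a log2 fold change of 0.49 ± 0.15, followed by miR-222, miR-30b, miR-30c and miR-1843b at 0.0940 to 0.127. miR-107 was only the eighth nearest to miR-103, at 0.178, and miR-103 was the twelfth nearest to miR-107. They parted within the groups: miR-103 was lower in control 1 than in control 2 while miR-107 was about level, and miR-107 was lower in cadmium 2 than in cadmium 1 while miR-103 was level. With 4 libraries this is a description.

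**Figure D5:**
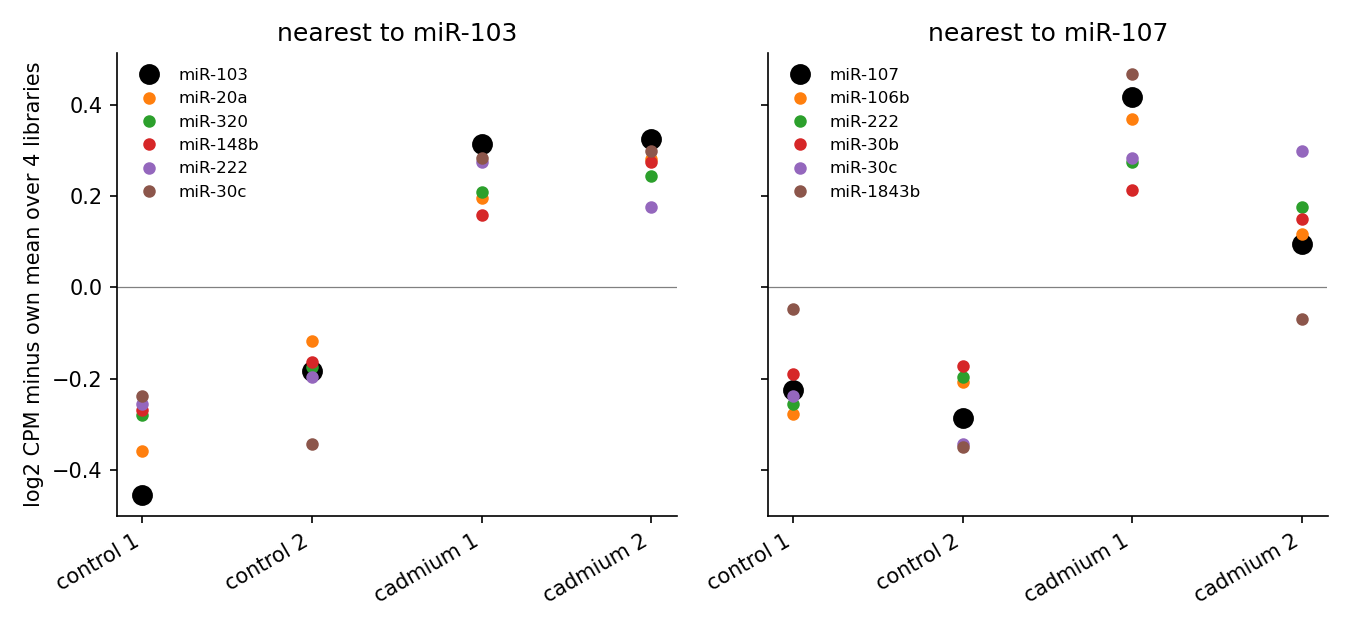
Log2 CPM minus each miRNA's own mean over the 4 libraries, for miR-103 (left) and miR-107 (right, both as large black points) and the 5 nearest sequences each (coloured points). In the left panel miR-103 runs from -0.46 in control 1 to 0.32 in cadmium 2, and in the right panel miR-107 is highest in cadmium 1 at 0.42.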

How the data were processed

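Small RNA libraries of total RNA from whole blood (2 control, 2 cadmium) were made with standard Illumina protocols, per the labels' protocols. The deposited lists, 1 per library, hold whole-number counts of mature reads per locus, not normalized by the authors. Bowtie 0.12.2, DESeq and the mm10 build are named in the submitters' processing notes. What each did, and the rule for reads that match several loci, is not stated there. Lists held 954, 693, 637 and 583 rows, and an unnamed total row in cadmium 1 was left out. In control 2 only 162 of 693 sequences had the length of their window, so its sequence column was not used. A name and its star form at 1 position were merged.

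The 277 annotated loci listed in all 4 libraries with overlapping windows entered edgeR 4.0.16 (R 4.3.3), with TMM, filterByExpr (276 kept), group as the only term, quasi-likelihood F test, two-sided, Benjamini-Hochberg adjustment over all tested loci and a threshold of 0.05. The SE is the log2 fold change over the square root of F. Chi-square per degree of freedom between replicates was 1019 for controls and 60.57 for cadmium, so no library was listed again as another. The fit was tested on simulated data. Alternatives were 4 other scalings, 2 filters, DESeq2 1.42.0, limma voom (limma 3.58.1), the replicate block, each library left out, and 3 choices of loci. Summing or subtracting miR-107 reads was added after seeing the data. Named loci are the members, the tested seed group, of the other lists the loci past the threshold and the 2 most abundant, the 5 nearest in pattern and the neighbours in level. Where miR-29b, miR-145a or a cell type marker is named outside this rule it was chosen after its values were seen. Members and lists were chosen with earlier results of these data known. mir-497 in the lists was taken as mir-497a. Python 3.11.15 with SciPy 1.17.1, pandas 2.3.3 and matplotlib 3.10.9 gave intervals, tables and figures.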

Additional observations from a re-analysis of the deposited data

How the results depend on the processing

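The log2 fold changes of miR-103 and miR-107 stayed positive under all alternatives run. For miR-103 the call held in 14 of 18 alternatives. These include summing and subtracting miR-107 reads, which were added after seeing the data, kept the call and have no counterpart for miR-107. Neither could move the value far, since miR-107 had far fewer reads than miR-103 and a similar log2 fold change. The call was lost with a mean CPM of at least 10 (0.60), with the replicate block (0.64) and without either cadmium library. Over the 4 fits that leave out a library the log2 fold change was 0.50 to 0.77. For miR-107 the value stayed short of the threshold in 11 of 16. It passed with total counts (0.82), the upper quartile (0.75) and totals without dominant loci (0.64). It also passed without control 1 (0.55) and without control 2 (0.49). Without cadmium 1 it was 0.35 and without cadmium 2 it was 0.67, and neither passed. The number of loci past the threshold, 40 with TMM, was 65 with total counts, 19 with the replicate block and 8 to 122 when a library was left out. Seed group loci past it numbered 5, and 3 with a mean CPM of at least 10, 1 with the replicate block and 0 to 8 when a library was left out. The combined share differed by 0.583 percentage points, 0.363 with every listed locus in the total and 1.13 without dominant loci (0.528 to 0.638 when a library was left out), and the log2 ratio of miR-103 to miR-107 by 0.13, -0.04 to 0.29 when a library was left out. Same-numbered libraries share no more than a number in the labels, and their deviations had a correlation of 0.0047 over 276 loci. The cause of these shifts was not tested. Counting error was small beside the spread between libraries for miR-103 and miR-107. Both cadmium libraries were less deep than both controls, so depth and group cannot be told apart, and depth was not tested. The comparison rests on 2 libraries per group.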
